A study of Mus musculus with 8 samples.

Results

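The genes described here are 40 genes of mitosis and of the G2 to M transition, taken by symbol among the 38920 rows of a mouse expression series, where all 40 had a row. The series sets sorted epithelial cells of the stomach of C57BL/6 mice fed a high fat diet (HFD) against those of control mice. RNA was sequenced from 4 HFD libraries (22, 23, 26 and 27) and 4 control libraries, titled ND (15-17-18, 16, 19 and 20). The labels give no age, sex or length of feeding, and do not say whether a library is 1 mouse; the title of ND 15-17-18 holds 3 numbers. All libraries come from total RNA freed of ribosomal RNA, and the values are the authors' log2 values scaled to a common total.

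A dividing cell enters mitosis when a cyclin-dependent kinase joins its mitotic cyclins, condenses its chromosomes, builds a spindle, and holds anaphase back until every kinetochore is attached. The genes of these steps are switched on together late in the cell cycle, so their RNA is widely used as a sign of cycling cells. In the gastric gland such cells sit mainly in the isthmus, a short zone of progenitors between the mucous pit and the gland base.

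In these libraries 38 of the 40 genes had a higher mean in HFD than in ND, against 60.1% of the 27401 rows tested, and in 21 of them all 4 HFD libraries lay above all 4 ND libraries, against 4.76% of rows. Among the 15111 rows within the range of levels of the 40 genes it was 6.24%. In 0 of the 40 did all HFD libraries lie below, against 3.09% of rows. The median difference over the 40 genes was 0.54 on the log2 scale, against 0.12 over all rows tested. None of the 40 passed the test across all rows (limma, Benjamini-Hochberg adjusted p from 0.11 to 0.96; 1 row of all those tested, 0.00365%, passed higher in HFD and 2 rows, 0.0073%, lower). At an unadjusted limma p under 0.05, 27 of the 40 were higher and 0 lower, against 6.52% and 4.03% of rows tested. More dividing cells and more of these RNAs in each cell cannot be told apart in such samples. Levels below are log2(value + 1) after median-ratio scaling, which sets each library against its typical gene, and a difference is the HFD mean minus the ND mean.

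Many promoters of mitotic genes carry a CCAAT box, the letters bound by the factor NF-Y, and the letters TTTGAA, the core of the cell cycle genes homology region bound by the DREAM and MuvB complexes. Of the 40 genes, 33 matched the RefSeq promoter table of GRCm38.p6, the assembly of mm10, whose windows run from 250 bases before to 50 after a start. The genes Aurkb, Ccna2, Cdc25c, Foxm1, Kif20a, Smc4 and Tpx2 are not in it. CCAAT, read on both strands with overlaps allowed, stood in 25 of the 33 windows (75.8%), against 38% of the windows of 27025 genes. TTTGAA, read likewise, stood in 23 of 33 (69.7%), against 18.2%. Both stood in 20 of 33 (60.6%), against 7.16%. Of the genes in the table, those with all HFD libraries above all ND libraries had the letters as follows: TTTGAA in 8 of 16 (50%), CCAAT in 11 (68.8%) and both in 7 (43.8%), against 15 (88.2%), 14 (82.4%) and 13 (76.5%) of the 17 whose groups overlapped. That difference was not tested. The 120 bases before the outermost RefSeq start are shown for 3 genes whose HFD libraries all lay above ND (Ccnb1, Ccnb2 and Kif11) and 3 whose groups overlapped (Cdc20, Cdk1 and Mki67), 5′ to 3′ on the strand of the gene, with both sets of letters in capitals, on either strand. They are chr13:100786487-100786606, chr9:70421555-70421674, chr4:118437344-118437463, chr10:69352913-69353032 and chr7:135716451-135716570 on the minus strand for Ccnb1, Ccnb2, Cdc20, Cdk1 and Mki67, and chr19:37376262-37376381 on the plus strand for Kif11. Letters elsewhere in the windows were counted but are not shown. Ccnb2 has TTTGAA outside its stretch, beginning at bases -167 and 5 from the start, and Cdk1 has ATTGG at -208.
Ccnb1: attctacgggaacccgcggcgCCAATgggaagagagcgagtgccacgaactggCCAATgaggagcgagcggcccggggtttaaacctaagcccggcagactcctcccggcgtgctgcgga
Ccnb2: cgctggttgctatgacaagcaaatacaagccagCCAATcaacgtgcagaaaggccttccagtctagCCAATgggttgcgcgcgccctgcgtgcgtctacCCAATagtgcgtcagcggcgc
Kif11: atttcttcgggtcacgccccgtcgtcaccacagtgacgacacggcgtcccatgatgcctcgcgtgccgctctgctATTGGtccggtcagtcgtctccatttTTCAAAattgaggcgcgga
Cdc20: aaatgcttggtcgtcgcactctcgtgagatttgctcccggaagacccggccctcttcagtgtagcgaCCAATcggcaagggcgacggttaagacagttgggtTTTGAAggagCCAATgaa
Cdk1: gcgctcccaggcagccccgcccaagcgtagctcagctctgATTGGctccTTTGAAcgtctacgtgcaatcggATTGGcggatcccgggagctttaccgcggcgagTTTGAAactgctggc
Mki67: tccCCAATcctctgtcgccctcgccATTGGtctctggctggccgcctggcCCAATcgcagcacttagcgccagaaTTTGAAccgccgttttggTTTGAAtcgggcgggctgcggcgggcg

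The plot of levels by library shows where the groups separate and where 1 library departs from its group.

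**Figure D1:**
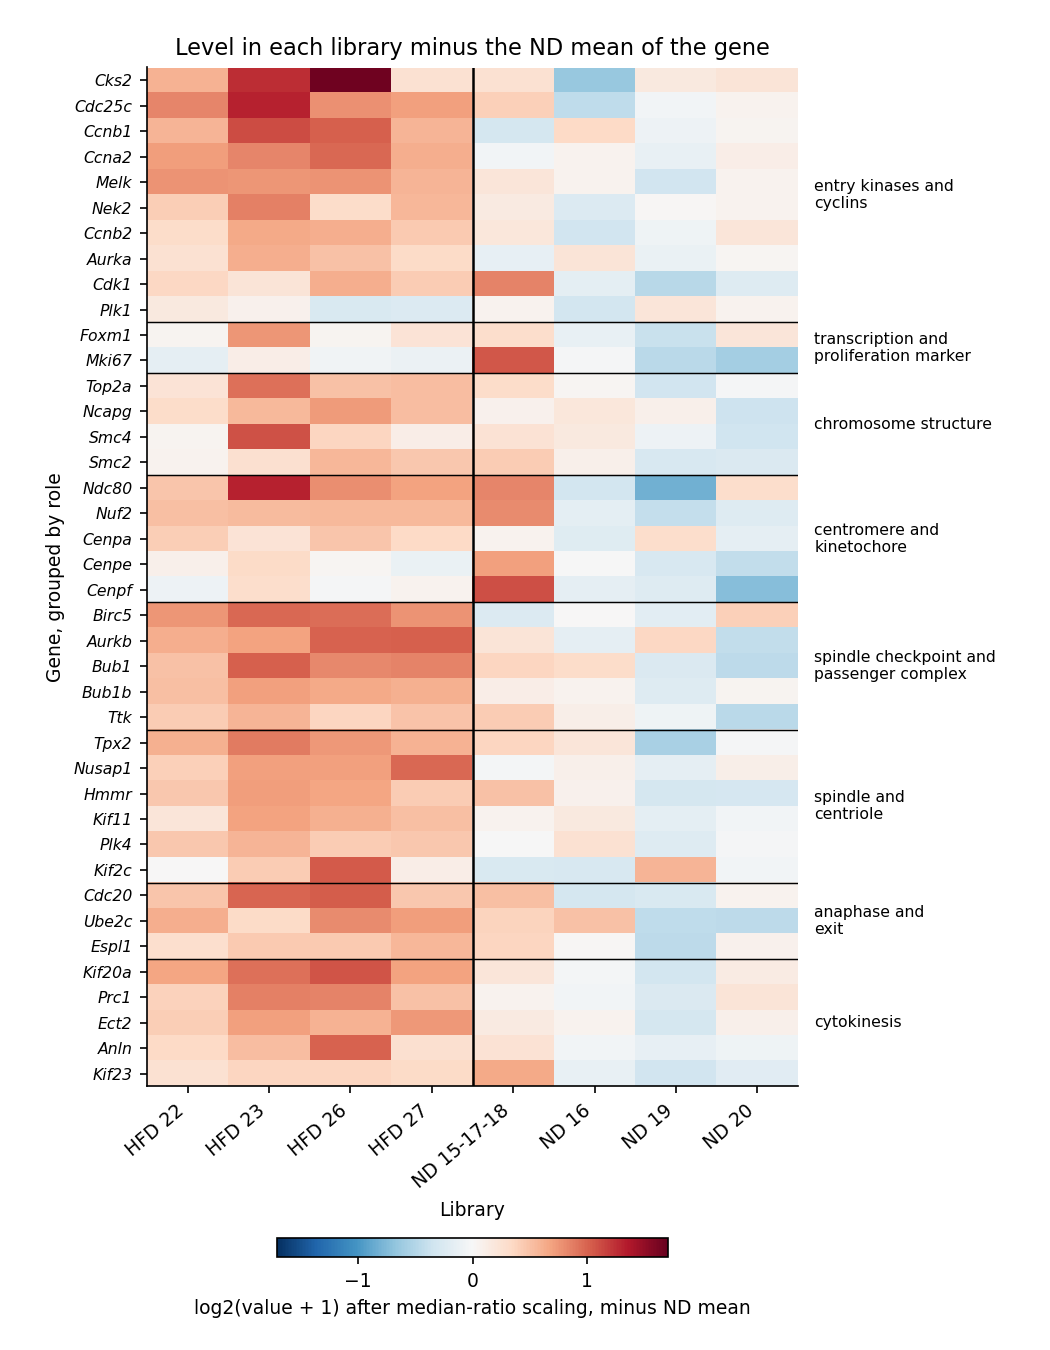
Level of each of the 40 genes (down the page, grouped by role) in each library (across, HFD left and ND right), as log2(value + 1) after median-ratio scaling minus the gene's ND mean; red is above and blue below that mean. Most rows are red across all 4 HFD libraries, while Mki67, Cenpf, Cenpe, Cdk1, Nuf2 and Kif23 are reddest in ND 15-17-18.

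Each library's mean over the 40 genes was 8.80, 9.09, 9.04 and 8.88 in HFD 22, 23, 26 and 27, and 8.70, 8.39, 8.23 and 8.33 in ND 15-17-18, 16, 19 and 20. HFD 23 was the highest of the 8 libraries for 18 genes and HFD 26 for 10. The lowest library was always an ND library, most often ND 19, for 20 genes. ND 15-17-18 stood apart from the other ND libraries: it was the highest of all 8 for 6 genes (Mki67, Cenpf, Cenpe, Cdk1, Nuf2 and Kif23) and the highest ND library for 25. The 20 top rows made up 29.0% to 43.1% of the total value in HFD libraries, against 85.7% in ND 15-17-18 and 27.8% to 59.1% in the other ND libraries. On the authors' common total the mean over the 40 genes was 9.10 to 9.60 in HFD, against 6.44 in ND 15-17-18 and 7.90 to 9.06 in the other ND libraries. Without ND 15-17-18, 31 of the 40 genes had all HFD libraries above all ND libraries, against 6.34% of rows tested. The median difference was then 0.65, and 33 genes were higher at an unadjusted limma p under 0.05, against 5.25% of rows. These were the highest values with 1 library left out. With any other single library left out, 21 to 23 genes were without overlap, against 1544 to 2535 of the 27401 rows tested. The median difference was 0.49 to 0.60. In those fits 22 to 24 genes were higher at an unadjusted limma p under 0.05, against 1219 to 2265 rows.

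Among the cyclins and entry kinases, 8 of 10 had all HFD libraries above all ND libraries, with a median difference of 0.63. This count and those of the other roles below stand against 4.76% of rows tested. Roles hold few genes, and differences between them were not tested. Cyclin A2, Ccna2 (chromosome 3, 36564865 to 36573038), which pairs with the cyclin-dependent kinases in S phase and at mitotic entry, had the smallest p of the 40. It stood at 9.79, 9.91, 10.05 and 9.69 in HFD 22, 23, 26 and 27, against 9.04, 9.13, 8.95 and 9.19 in ND 15-17-18, 16, 19 and 20. The groups were apart by 0.50 at their nearest libraries, and the difference was 0.78 ± 0.12 (SE; 1.72-fold; limma adjusted p = 0.11).

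Cyclin B1, Ccnb1 (chromosome 13, 100778739 to 100786486), the cyclin that brings Cdk1 to its mitotic activity, stood at 7.39, 7.92, 7.82 and 7.39 in HFD libraries, against 6.52, 7.15, 6.73 and 6.85 in ND libraries. All HFD libraries lay above ND 16, the highest ND library, and the difference was 0.82 ± 0.22 (SE). Cyclin B2, Ccnb2, differed by 0.51 ± 0.15 (SE), also without overlap.

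Cdk1 itself (chromosome 10, 69335146 to 69352912), the kinase these cyclins serve, stood at 9.90, 9.77, 10.16 and 9.98 in HFD, against 10.39, 9.39, 9.08 and 9.33 in ND 15-17-18, 16, 19 and 20. ND 15-17-18 was above every HFD library and the other 3 ND libraries were below every one. Its difference was 0.40 ± 0.25 (SE) with all libraries, 0.69 ± 0.13 (SE) without ND 15-17-18 and 0.25 without ND 19.

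Cdc25c, the phosphatase that removes the inhibitory phosphates from Cdk1, stood at 7.31, 7.79, 7.27 and 7.18 in HFD, against 6.90, 6.06, 6.43 and 6.55 in ND. The groups did not overlap, and the difference of 0.90 ± 0.25 (SE) was the second largest of the 40. The largest, 0.94 ± 0.46 (SE), was that of Cks2, a small Cdk-binding subunit whose low and scattered values left a gap of only 0.01 between the nearest HFD and ND libraries.

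Melk, a kinase of proliferating cells, stood at 9.35, 9.33, 9.34 and 9.16 in HFD, against 8.78, 8.64, 8.25 and 8.64 in ND. Nek2, a kinase that separates the centrosomes, stood at 8.67, 9.10, 8.57 and 8.81 in HFD, against 8.40, 8.02, 8.27 and 8.32 in ND. Both were without overlap, at 0.72 ± 0.14 and 0.54 ± 0.16 (SE). Aurka, the centrosomal Aurora kinase, differed by 0.43 ± 0.15 (SE), also without overlap.

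Plk1 (chromosome 7, 122159435 to 122169884), the Polo kinase that acts at nearly every step of mitosis, did not share this pattern. It stood at 9.95, 9.86, 9.52 and 9.55 in HFD, against 9.84, 9.47, 9.99 and 9.84 in ND. The groups overlapped across their whole range. The difference was -0.07 ± 0.15 (SE), with a 95% interval from -0.41 to 0.28, and 0.79 on the deposited scale, below the 0.90 of the median row on that scale.

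**Figure D2:**
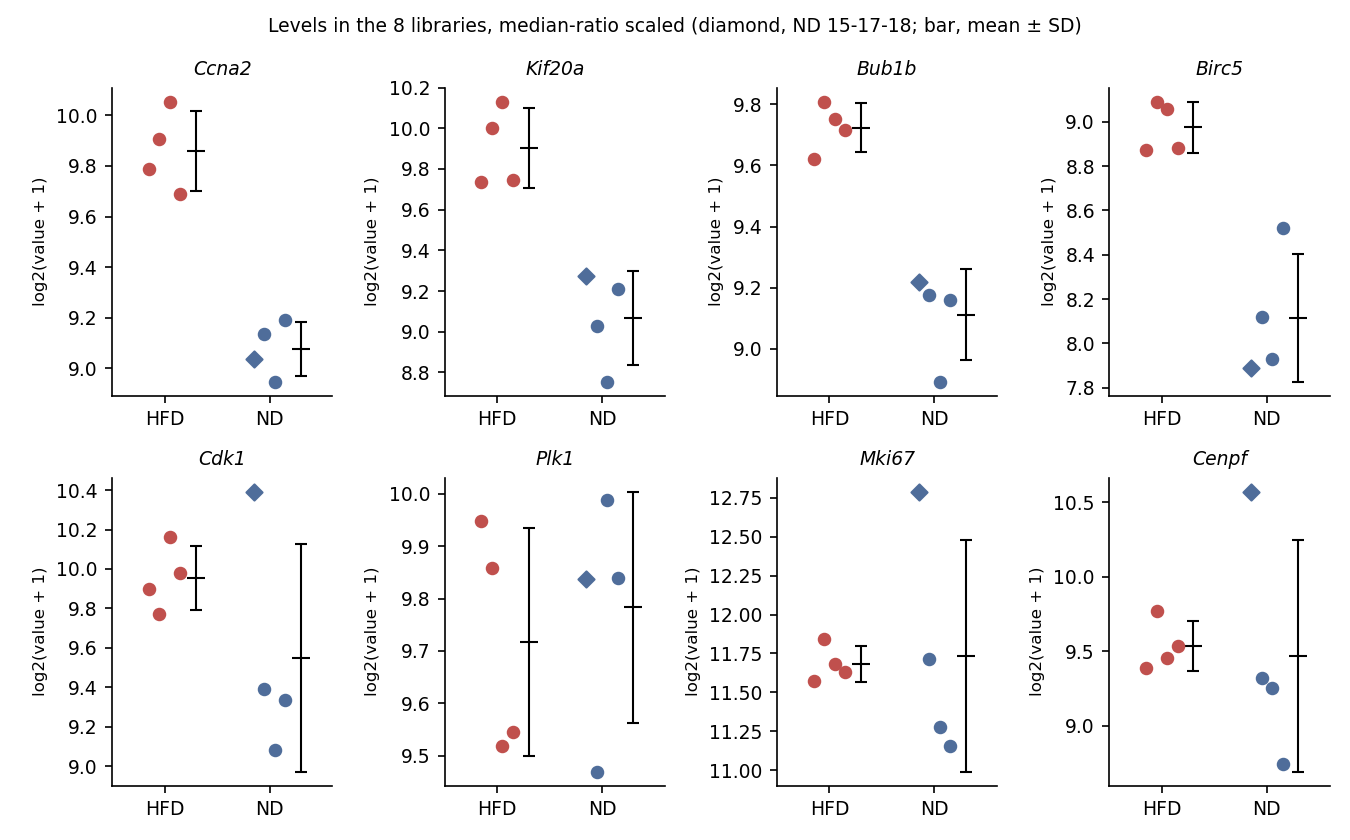
Levels of 8 genes in each library, as log2(value + 1) after median-ratio scaling, with HFD left and ND right in each panel; points are libraries, the diamond is ND 15-17-18 and the bar gives the mean ± SD (n = 4 each; axes do not start at 0). Ccna2, Kif20a, Bub1b and Birc5 show no overlap, in Cdk1, Mki67 and Cenpf the diamond lies above all HFD libraries, and in Plk1 the groups mix.

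The spindle checkpoint and the chromosomal passenger complex had the highest median of the 8 roles, at 0.79, with 4 of 5 genes without overlap. Birc5 (chromosome 11, 117849237 to 117855743), which encodes survivin, the passenger subunit that brings Aurora B to centromeres, stood at 8.87, 9.09, 9.06 and 8.88 in HFD, against 7.89, 8.12, 7.93 and 8.52 in ND. The difference was 0.86 ± 0.17 (SE; limma adjusted p = 0.17). Aurkb, the kinase of the same complex, stood at 8.42, 8.48, 8.80 and 8.81 in HFD, against 8.02, 7.65, 8.14 and 7.37 in ND, with a difference of 0.83 ± 0.20 (SE).

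Bub1b (chromosome 2, 118598202 to 118641592), which encodes the checkpoint protein BubR1, had the smallest SE of the 40 genes. It stood at 9.62, 9.81, 9.75 and 9.71 in HFD, against 9.22, 9.18, 8.89 and 9.16 in ND. The difference was 0.61 ± 0.12 (SE; limma adjusted p = 0.17). The checkpoint kinase Bub1 differed by 0.79 ± 0.24 (SE) without overlap. Ttk, the checkpoint kinase also called Mps1, differed by 0.46 ± 0.21 (SE), and ND 15-17-18 overlapped the HFD libraries.

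In the spindle and centriole group 4 of 6 genes were without overlap, with a median difference of 0.53. Tpx2, which activates Aurora A on spindle microtubules, stood at 9.50, 9.79, 9.64 and 9.49 in HFD, against 9.27, 9.11, 8.35 and 8.88 in ND. Nusap1, a microtubule bundling protein, stood at 8.57, 8.86, 8.86 and 9.14 in HFD, against 8.13, 8.26, 8.02 and 8.27 in ND. Their differences were 0.70 ± 0.19 and 0.69 ± 0.15 (SE).

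The motor Kif11, which pushes the spindle poles apart, stood at 8.93, 9.40, 9.33 and 9.23 in HFD, against 8.78, 8.88, 8.55 and 8.68 in ND, with the nearest libraries 0.05 apart and a difference of 0.50 ± 0.14 (SE). Plk4, the kinase of centriole duplication, differed by 0.48 ± 0.19 (SE) without overlap. Hmmr, a microtubule-associated protein, and Kif2c, a kinesin that takes microtubules apart, differed by 0.57 ± 0.20 and 0.40 ± 0.27 (SE), with overlap. In Kif2c, HFD 26, at 9.47, was the highest library, and HFD 22, 23 and 27 lay below ND 19, at 9.01; without HFD 26 its difference was 0.19.

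Of the 5 genes of cytokinesis 4 were without overlap, with a median difference of 0.61. Kif20a (chromosome 18, 34624624 to 34633277), a kinesin of the central spindle, stood at 9.74, 9.9997, 10.13 and 9.75 in HFD, against 9.27, 9.03, 8.75 and 9.21 in ND. The difference was 0.84 ± 0.15 (SE; limma adjusted p = 0.16), the second smallest p of the 40. Prc1, which cross-links the microtubules of the midzone, stood at 8.88, 9.35, 9.33 and 8.99 in HFD, against 8.55, 8.45, 8.25 and 8.72 in ND, and differed by 0.65 ± 0.16 (SE).

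Ect2, the exchange factor that activates RhoA at the cleavage furrow, stood at 9.47, 9.74, 9.64 and 9.79 in HFD, against 9.19, 9.10, 8.75 and 9.14 in ND, and differed by 0.61 ± 0.14 (SE). The furrow protein anillin, Anln, differed by 0.54 ± 0.17 (SE), with the nearest libraries 0.03 apart. Kif23, a motor of the centralspindlin complex, differed by 0.33 ± 0.20 (SE) and overlapped, with the HFD libraries at 8.96 to 9.07, all below ND 15-17-18 at 9.35. The genes of anaphase and mitotic exit gave a median of 0.62 with 0 of 3 without overlap: Cdc20, the activator of the anaphase promoting complex, at 0.74 ± 0.23, its ubiquitin conjugating enzyme Ube2c at 0.62 ± 0.25 and separase, Espl1, at 0.43 ± 0.17 (SE). Without ND 19 the difference of Espl1 was 0.28, and without ND 15-17-18 that of Kif23 was 0.54. Cdc20 overlapped narrowly, since HFD 22 and 27, at 8.48, lay just below ND 15-17-18, at 8.52.

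**Figure D3:**
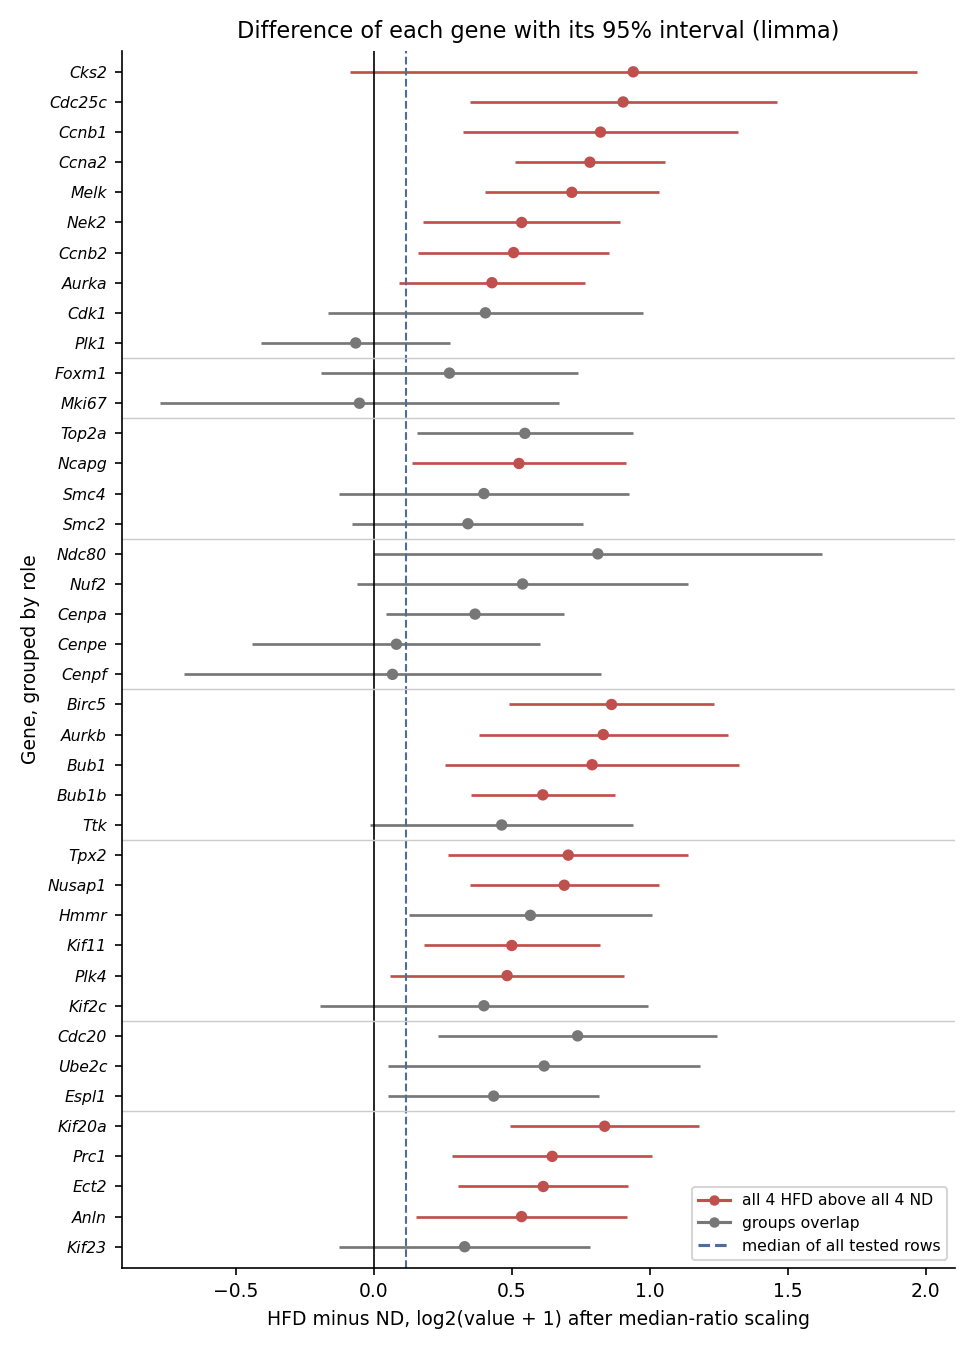
HFD minus ND difference of each gene in log2(value + 1) after median-ratio scaling (across), with its 95% interval from limma, genes down the page by role. Red marks the 21 genes with all 4 HFD libraries above all 4 ND libraries, grey the other genes, and the dashed line the median of all tested rows, 0.12; the points of Plk1 and Mki67 lie left of 0.

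The 4 genes of chromosome structure had a median of 0.46. Topoisomerase II alpha, Top2a (chromosome 11, 98992947 to 99024199), which untangles sister chromatids, stood at 11.36, 12.07, 11.63 and 11.66 in HFD, against 11.45, 11.16, 10.81 and 11.11 in ND. ND 15-17-18 lay just above HFD 22, and the difference was 0.55 ± 0.18 (SE). The condensin subunits Ncapg, Smc2 and Smc4 differed by 0.53 ± 0.17, 0.34 ± 0.19 and 0.40 ± 0.23 (SE), and only Ncapg was without overlap. In Smc4, HFD 23 stood at 10.36, against 9.33 to 9.65 in the other HFD libraries, and without it the difference was 0.17.

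The 5 centromere and kinetochore genes of the set gave a median of 0.37, with 0 of 5 without overlap. This does not hold for all genes of that role. In the longer list below Cenpi, Cenpk and Nsl1 were without overlap, while Cenph, Cenpn and Mis12 overlapped. The microtubule-binding pair Ndc80 and Nuf2 differed by 0.81 ± 0.36 and 0.54 ± 0.27 (SE), and Ndc80 by 0.54 without ND 19. Nuf2 was nearly level among HFD libraries, from 7.47 to 7.51, while in ND it stood at 7.75 in ND 15-17-18 and at 6.54 to 6.79 in the other 3. Without ND 15-17-18 Nuf2 differed by 0.80 ± 0.17 (SE). The centromeric histone Cenpa differed by 0.37 ± 0.14 (SE), and the kinetochore motor Cenpe by 0.08 ± 0.23 (SE). Cenpf, a large kinetochore protein, stood at 9.39 to 9.77 in HFD, against 10.57 in ND 15-17-18 and 8.74 to 9.32 in the other ND libraries, and differed by 0.07 ± 0.33 (SE).

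Foxm1 (chromosome 6, 128362994 to 128375886), the transcription factor that drives many genes of this set, stood at 8.71, 9.41, 8.71 and 8.90 in HFD, against 8.96, 8.54, 8.28 and 8.87 in ND. The groups overlapped and the difference was 0.27 ± 0.21 (SE), with a 95% interval from -0.19 to 0.74; it was 0.11 without HFD 23 and 0.15 without ND 19. Mki67 (chromosome 7, 135689784 to 135716450), which encodes the proliferation antigen Ki-67, stood at 11.58, 11.84, 11.68 and 11.63 in HFD, against 12.79, 11.72, 11.28 and 11.16 in ND 15-17-18, 16, 19 and 20. The HFD libraries lay close together, and the ND libraries were spread on both sides of them. Mki67 differed by -0.05 ± 0.32 (SE), with a 95% interval from -0.78 to 0.67; without ND 15-17-18 the difference was 0.30 ± 0.15 (SE), and on the deposited scale it was 0.80, below the median row.

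The genes that were highest in ND 15-17-18 included the longest transcripts of the set. The longest GENCODE coding transcript is 10061 bases for Mki67, 11130 for Cenpf and 7910 for Cenpe, against 692 for Cks2. Across the 40 genes the HFD minus ND difference had a Spearman correlation of -0.42 with transcript length. It was -0.36 over 11521 rows that had a transcript length and lay above 30 in all libraries after median-ratio scaling. These genes share the same 8 libraries and are not independent. The level in ND 15-17-18 minus the mean of the other ND libraries correlated with length at 0.29 over the 40 genes and 0.36 over those rows. Without ND 15-17-18 the HFD minus ND difference still correlated with length, at -0.37 over the 40 genes and -0.25 over those rows. With transcript length fitted out of each library, an analysis added after the data were seen, 21 of the 40 genes were without overlap, all higher in HFD, against 4.29% of 18141 rows tested. The median difference was then 0.58, and Mki67, Cenpf and Cenpe differed by 0.16, 0.30 and 0.26, while Plk1 differed by -0.14.

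**Figure D4:**
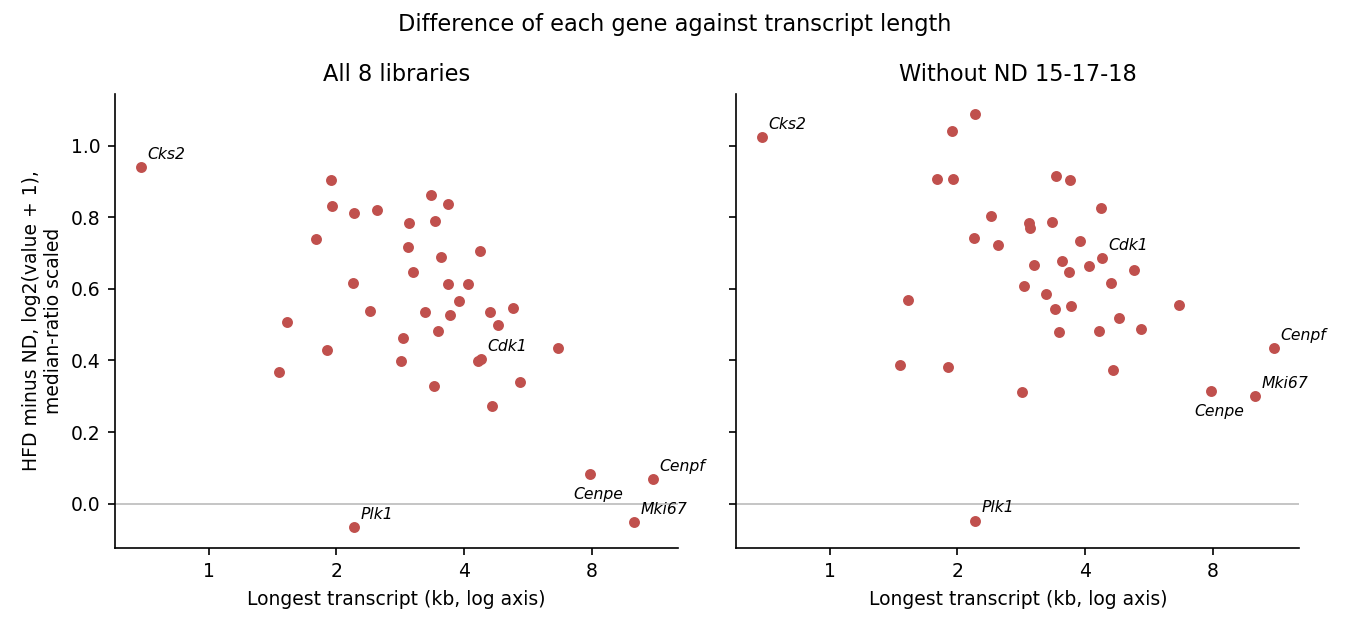
HFD minus ND difference of each of the 40 genes, in log2(value + 1) after median-ratio scaling, against the length of its longest transcript in kb on a log axis, with all 8 libraries (left) and without ND 15-17-18 (right). On the left Mki67, Cenpf and Cenpe lie near 0 at the long end, on the right they lie between 0.30 and 0.43, and Plk1 is near 0 in both.

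Per kb of longest transcript, on the linear scale after scaling, Top2a was the most abundant of the 40 in HFD libraries, with 638 in HFD and 435 in ND. Ccnb2 came next in HFD libraries, with 407 in HFD and 288 in ND. Of the genes below it, Plk1 had 386 in HFD and 404 in ND, Mki67 327 in HFD and 378 in ND, and Ccna2 314 in HFD and 182 in ND. These figures take the deposited values as not yet divided by length, which the sources used here do not state. Plk4 was the least abundant, with 45.0 in HFD and 32.3 in ND.

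Other genes of the same process, 87 in a list drawn up from general knowledge, showed a like pattern in counts. The list was chosen with earlier results of these data known. Its genes were read in the same libraries as the set, so their counts are not an independent check on it. In 33 of the 87 all HFD libraries lay above all ND libraries and in 1 (Cenpo) below, against 4.76% and 3.09% of rows tested. The median difference was 0.43. By limma 38 of the 87 were higher and 0 lower at an unadjusted p under 0.05, against 6.52% and 4.03% of rows tested. At an adjusted limma p under 0.05 there were 0. The smallest p-values in that list belonged to the condensin subunit Ncaph, at 0.68 ± 0.12, the centralspindlin subunit Racgap1, at 0.51 ± 0.11, and the centromere factors Mis18a and Cenpi, at 1.02 ± 0.22 and 1.15 ± 0.26 (SE). Ncaph stood at 9.27, 9.26, 9.33 and 9.40 in HFD, against 8.59, 8.66, 8.49 and 8.80 in ND, so that it too was without overlap.

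Among 50 genes of DNA replication and the G1 to S transition, 24 were without overlap, all higher in HFD, against 4.76% of rows tested. Their median was 0.45. By limma 31 were higher and 0 lower at an unadjusted p under 0.05, against 6.52% and 4.03% of rows, and 0 after adjustment. Subunits of the anaphase promoting complex, most of which are made in cycling and resting cells alike, had a median of 0.21, with 2 of 15 without overlap, Anapc13 at 0.89 ± 0.20 and Cdc16 at 0.25 ± 0.13 (SE). The 2 of 15 stand against the same 4.76% of rows tested. The difference between these lists was not tested.

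The counts for the 40 genes depended on the scaling. On the deposited scale 20 were without overlap and 16 higher at an unadjusted limma p under 0.05, against 7.82% and 9.25% of rows tested. After quantile normalization 17 were without overlap, against 2.6% of rows. On a common total without the 20 most abundant rows the counts were 30 and 35, against 7.47% and 8.88% of rows. Without HFD 23 and ND 15-17-18 together, a choice made after the data were seen, 33 were without overlap, against 9.55% of rows. All of these genes were higher in HFD.

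**Figure D5:**
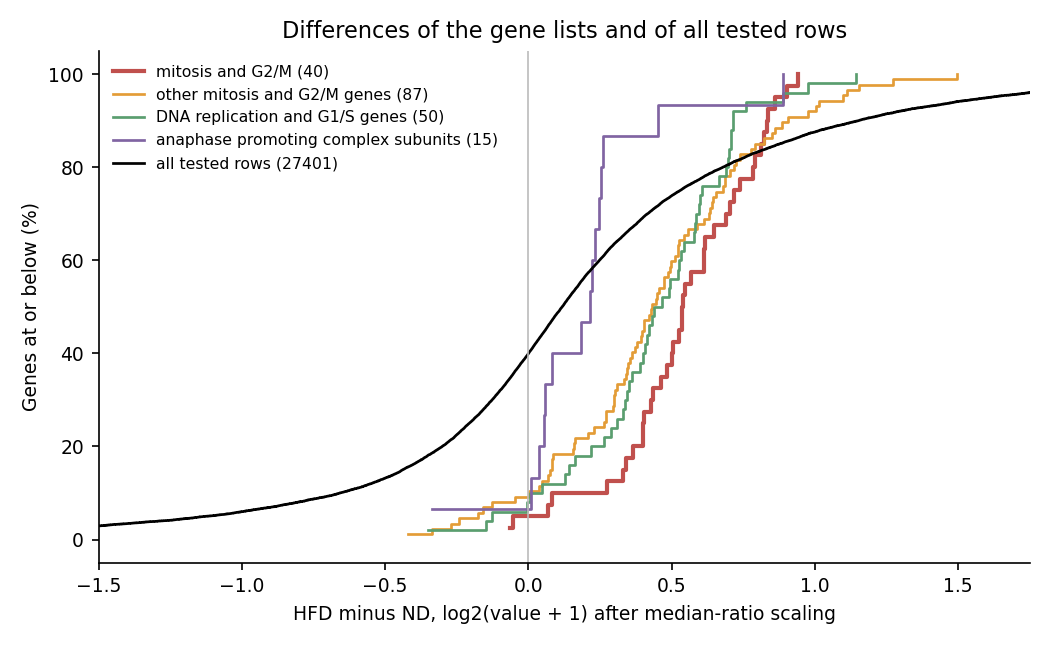
Cumulative share of genes (up, in percent) at or below each HFD minus ND difference in log2(value + 1) after median-ratio scaling (across), for the 40 genes, 3 other lists and all 27401 tested rows; the number of genes stands in the legend. The curves of the mitosis and replication lists cross the middle of the axis at 0.43 to 0.54, that of the anaphase promoting complex at 0.21 and that of all rows at 0.12.

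The lists of DREAM and MuvB genes and of cell cycle brakes had lower medians than the set itself. These lists do not hold all regulators of the cycle. Of transcription factors counted elsewhere, Mybl2, at 0.65 ± 0.17, and E2f1, at 0.71 ± 0.22 (SE), had all HFD libraries above all ND libraries. E2f2, E2f3 and Foxm1 overlapped, at -0.0055 ± 0.24, -0.15 ± 0.20 and 0.27 ± 0.21 (SE). In the DREAM and MuvB complexes, which repress and then activate these promoters, the median was 0.16, with Lin9 without overlap above, at 0.58 ± 0.27 (SE), among 11 genes. Lin54, the MuvB subunit that reads the TTTGAA letters, had all HFD libraries below ND, at -0.78 ± 0.39 (SE), or 0.07 on the deposited scale, with HFD libraries at 8.13 to 8.44, ND 15-17-18 at 10.43 and the other ND libraries at 8.53 to 8.70. Of 16 brakes on the cell cycle, with a median of 0.28, 5 were without overlap above, against 4.76% of rows tested. Gadd45a was without overlap below, against 3.09% of rows, at -0.74 ± 0.30 (SE), or 0.10 on the deposited scale. Trp53, which encodes p53, differed by 0.40 ± 0.12, and the Cdk inhibitors Cdkn1c, Cdkn2c and Cdkn1b by 0.65 ± 0.24, 0.48 ± 0.19 and 0.27 ± 0.11 (SE). Cdkn1a, the p53 target p21, overlapped, at -0.22 ± 0.25 (SE), or 0.63 on the deposited scale. It stood at 11.18 in ND 16, against 9.91 to 10.32 in the other ND libraries and 9.90 to 10.42 in HFD. None of the genes of these lists passed the adjusted limma threshold. At an unadjusted limma p under 0.05, 0 DREAM and MuvB genes passed. By the same measure 4 brakes were higher and 1 lower, against 6.52% and 4.03% of rows tested.

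Markers of the cells that the sort could hold were read in the same libraries. The summed level of 15 gastric epithelial markers, among them Epcam, Atp4a and Pgc, was 21.62 to 21.75 in HFD and 21.05 to 21.58 in ND, and 0 of the 15 were at 0 in any library. That sum was mostly Pgc, at 20.97 to 21.36 in HFD and 19.99 to 21.10 in ND, while 9 of the 15 had the lower mean in HFD and the median difference was -0.12. Epcam, at 0.69 ± 0.14, and Cblif, which encodes intrinsic factor, at 1.46 ± 0.33 (SE), had all HFD libraries above all ND libraries. The pit mucin Muc5ac, at -1.61 ± 0.35 (SE), and Cdh1, at -0.42 ± 0.12 (SE) or 0.43 on the deposited scale, had all HFD libraries below. The summed level of 12 smooth muscle and fibroblast markers was 12.30 to 13.06 in HFD and 10.73 to 12.99 in ND. Of the 12, 11 had the higher mean in HFD, with a median difference of 1.46. All HFD libraries lay above all ND libraries for 6, against 4.76% of rows tested. Acta2, at 2.05 ± 0.42, and Cnn1, at 2.19 ± 0.52 (SE), were among these 6, while Col1a1, at -0.14 ± 0.55 (SE), went the other way. Forestomach squamous markers, 10 in number, gave 11.23 to 12.53 in HFD and 7.87 to 11.35 in ND, 9 of the 10 with the higher mean in HFD and with Krt5, a keratin of the dividing basal layer, at 9.71 to 11.13 in HFD and 5.43 to 10.34 in ND. The squamous list had a median difference of 1.47, with 0 of the 10 without overlap. The 7 endothelial markers gave 10.26 to 10.81 in HFD and 9.40 to 10.96 in ND. Of these 7, 6 had the higher mean in HFD, with a median difference of 0.55, and Esam alone was without overlap. For 18 leukocyte markers the sum was 7.87 to 8.71 in HFD and 7.93 to 12.73 in ND, where the top value came from Coro1a, at 12.60 in ND 15-17-18. Of the 17 that were tested, 10 had the higher and 7 the lower mean in HFD, and Cd3e alone was without overlap. Cd3e and Ms4a1, which mark T and B cells, stood at 1.10 to 5.13 in HFD and at 0.78 and 1.65 in ND 16, and were listed at 0 in the other ND libraries; 9 of the 18 were at 0 in at least 1 library and 0 in all. The B cell gene Cd79b went the other way, at 1.72 to 3.93 in HFD and 3.51 to 6.59 in ND, as did the T cell gene Cd8a, at 1.80 to 5.11 in HFD and 2.70 to 6.77 in ND, both with overlap. Of 10 isthmus and stem cell markers 1 symbol found no row, and the other 9 summed to 12.82 to 13.02 in HFD and 12.63 to 13.01 in ND, mostly from Lrig1 and Runx1. Of the 9, 7 had the higher mean in HFD, with a median difference of 0.27. At an unadjusted limma p under 0.05, 3 were higher, against 6.52% of rows tested. In 2 of the 9 all HFD libraries lay above all ND libraries, against 4.76% of rows tested. These were Bhlha15, at 0.87 ± 0.19, and Iqgap3, at 0.51 ± 0.13 (SE). Runx1, at -0.36 ± 0.33, and Mex3a, at -0.15 ± 0.25 (SE), had the lower mean. Such levels do not show which cells held these RNAs, so they give no count of isthmus cells. The part of these cells in the differences of the 40 genes was not tested.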

How the data were processed

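Total RNA of sorted gastric epithelial cells was depleted of ribosomal RNA and sequenced in 4 HFD and 4 ND libraries, per the labels' protocols. The authors' deposited tables hold 1 log2 value per row, floored at 0 and scaled to a common total of 36.9 M in each library; how they were aligned, annotated and normalized is not given in the sources used here, and the submitters' processing notes name mm10 and bedtools 2.17.0. Read depth is unknown, so no counting interval is given. Row numbers were named from the RefSeq gene table of GRCm38.p6 (32891 matched), whose coordinates, counted from 1, are printed. Transcript lengths are those of GENCODE vM21. Values were taken back from log2 (0 as 0), divided by median-ratio factors from 11115 rows above 30 in all libraries (because on the common total a few abundant rows shift all others; 0.206 for ND 15-17-18, 0.793 to 1.59 for the others), and tested as log2(value + 1) with limma 3.58.1 (trend, robust; R 4.3.3) on the 27401 rows of at least 1 in at least 4 libraries, with group as sole term and Benjamini-Hochberg adjustment over all rows (threshold 0.05). This scale understates changes of low genes. The test was checked on simulated data. P-values set each difference against the spread between these libraries, which limma estimates in part across all rows. Whether that is a spread between single mice is not known. Per-library values were printed for the 14 genes of smallest p among those without overlap, for Mki67, Foxm1, Cdk1, Ccnb1, Plk1 and Top2a, and for genes with a negative difference; Ndc80, Nuf2, Cenpf, Kif23, Kif2c, Smc4, Cdc20 and Ncaph values were singled out after they were seen. The genes and lists were chosen with earlier results of these data known.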

Additional observations from a re-analysis of the deposited data

Results flagged for a closer look

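Of 80 groups of 4 libraries examined (40 genes in HFD and ND), 2 held a library far from the other 3 by Dixon's criterion; chance flags about 1 in 20 groups. Melk stood at 9.16 in HFD 27, against 9.33 to 9.35 in the other HFD libraries. Cks2 stood at 3.91 in ND 16, against 4.73 to 4.81 in the other ND libraries.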

How the results depend on the processing

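Under all 16 alternatives 0 of the 40 genes passed the adjusted threshold (limma). The count without overlap, 21, was 17 after quantile normalization, 20 on the deposited scale, 21 to 31 with 1 library left out, 30 on a common total without the 20 most abundant rows, and 33 without HFD 23 and ND 15-17-18 together. The count of 27 at an unadjusted p under 0.05 was 16 on the deposited scale, 35 without the 20 rows and 22 to 33 with 1 library left out. With 1 library left out, 1544 to 2535 of the 27401 rows tested were without overlap and higher in HFD. By the unadjusted limma p, 1219 to 2265 rows were higher. The median difference of 0.54 became 1.39 on the deposited scale and 0.78 without the 20 rows, where the scaling itself moves the median row to 0.90 and 0.35, and 0.49 to 0.65 with 1 library left out; less the median row it was 0.42, and 0.31 to 0.56 over all 16. The 3 rows called among all rows became 16 on the deposited scale, 1 without the 20 rows, 1 for limma without trend and robust, and 2 to 5 with 1 library left out. Of the 40 genes, 36 kept a positive difference throughout. Mki67 reversed to 0.80 (deposited), 0.016 (quantile), 0.19 (without the 20 rows), 0.16 (length fitted out) and 0.25 (without HFD 23 and ND 15-17-18), and Plk1 to 0.79 (deposited) and 0.18 (without the 20 rows). With 1 library left out Mki67 ran from -0.25 to 0.30, Plk1 from -0.17 to 0.0020, Cenpe from -0.059 to 0.31 and Cenpf from -0.18 to 0.43. The causes of these reversals were not tested. No paired analysis was possible because the groups share no replicate number. Length correction and the joint omission of HFD 23 and ND 15-17-18 were chosen after seeing the data.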
